A study of Mus musculus with 4 samples.

Results

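The genes described here are 10 members of the Notch pathway: the receptors Notch1, Notch2, Notch3 and Notch4, the ligands Jag1 and Dll4, and the target genes Hes1, Hey1, Hey2 and Heyl. They were chosen by name and matched by Ensembl gene identifier in the 4 count matrices of the series, which share 27734 gene identifiers, and all 10 were found in every matrix. The data are 5′ droplet single-cell RNA libraries of whole mouse aorta, in which each transcript molecule captured is counted once by its unique molecular identifier (UMI). All mice were 16 to 20 weeks old and carried a Cre driver named CNC-SMC-Cre and the R26-tdT reporter, so the controls have Cre and reporter too. The cKO mice were in addition homozygous for a floxed Smad4 allele (CNC-SMC-Cre;Smad4flox/flox;R26-tdT), the signal transducer shared by the TGF-beta and BMP pathways. Each genotype gave 1 library of the arch and 1 of the descending thoracic aorta, so there are 4 groups of 1 library. Series of 4 values below are in library order, which is cKO and then control for the arch, followed by cKO and then control for the descending aorta. How many animals a library pools is not stated.

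Notch receptors are single-pass membrane proteins that bind ligands on a neighbouring cell. Binding lets ADAM proteases and gamma-secretase release the intracellular domain, which joins the DNA-binding protein RBPJ in the nucleus and switches on the Hes and Hey repressors. In arteries, Dll4 and Notch1 are best known from the endothelium, Jag1 on endothelium signals to the muscle beneath it, and Notch3 is the receptor typical of mural cells, meaning smooth muscle and pericytes.

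The libraries hold 5438, 8002, 5579 and 4941 cells after filtering, in library order, with medians of 5765, 9929.5, 6400 and 7043 UMIs per cell. Cell barcodes shared between 2 libraries numbered 25 to 59. Smad4 was still counted in smooth muscle-like cells of every library, at 66.0, 72.1, 86.2 and 89.6 CPM (the UMIs of a gene scaled to a common total of the cells summed), where counts at the 5′ end do not have to reveal a deletion further along the gene. The control arch library alone held UMIs of the 4 Y-linked genes examined (2716, against 0 in the others), and sex is therefore unequal in comparisons with it. Counting of the cKO arch library was done against another annotation than the others. With 1 library per group there is no replicate check and no test: every interval below is a 95% interval of counting error, and differences are described by size alone.

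Cells were clustered without the 10 members and without the other pathway genes listed below, and named from fixed marker genes. Smooth muscle-like cells numbered 1165, 3258, 1374 and 1188 in library order, and endothelial-like cells 156, 751, 1089 and 786. All 8 listed smooth muscle markers and all 8 endothelial markers were detected in the respective class of every library. The cells were chosen by these same markers, so their detection is no independent check of the names. Pericyte-like cells reached 50 cells only in the descending libraries (78 and 65, against 6 and 30 in the arch). A difference is called here when it reaches 1.5-fold (a log2 ratio of 0.58), its interval stays away from 0 and the gene has at least 50 UMIs in both libraries together.

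On mm10 (GENCODE annotation) the receptors lie at chr2:26457903-26516663 (Notch1, minus strand), chr3:98013527-98150361 (Notch2, plus), chr17:32120820-32166852 (Notch3, minus) and chr17:34564268-34588503 (Notch4, plus). The ligands lie at chr2:137081456-137116644 (Jag1, minus) and chr2:119325784-119335962 (Dll4, plus). The targets lie at chr16:30064384-30067796 (Hes1, plus), chr3:8663359-8667256 (Hey1, minus), chr10:30832359-30842801 (Hey2, minus) and chr4:123233556-123249875 (Heyl, plus).

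Sequence before the transcription start is shown for Notch3, Dll4 and Hey2, a receptor, a ligand and a target whose levels set the vascular cell clusters below apart. The windows are from RefSeq (GRCm38.p6), which held 7 of the 10 members, and the names not in it are Hes1, Hey1 and Heyl. Each is printed 5′ to 3′ on the strand of the gene and lies outside the gene body. The Notch3 window is chr17:32166891-32167140, the Dll4 window chr2:119325534-119325783 and the Hey2 window chr10:30842802-30843033. Capitals mark the core letters of the RBPJ motif, TGGGAA, searched on both strands.
Notch3: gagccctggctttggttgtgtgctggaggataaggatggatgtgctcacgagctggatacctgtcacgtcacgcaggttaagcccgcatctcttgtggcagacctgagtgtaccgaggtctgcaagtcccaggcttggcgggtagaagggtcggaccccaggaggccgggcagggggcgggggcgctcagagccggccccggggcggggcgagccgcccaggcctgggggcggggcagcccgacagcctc
Dll4: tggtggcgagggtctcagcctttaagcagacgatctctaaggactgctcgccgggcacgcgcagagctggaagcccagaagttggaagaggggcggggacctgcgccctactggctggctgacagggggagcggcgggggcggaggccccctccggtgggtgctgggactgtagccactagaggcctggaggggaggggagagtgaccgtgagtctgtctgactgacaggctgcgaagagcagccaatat
Hey2: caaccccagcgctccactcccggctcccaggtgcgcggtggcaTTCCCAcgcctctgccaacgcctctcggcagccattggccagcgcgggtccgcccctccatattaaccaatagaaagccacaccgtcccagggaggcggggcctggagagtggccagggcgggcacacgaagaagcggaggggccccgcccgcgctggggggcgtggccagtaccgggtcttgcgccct
Among the 7 members in the table, only the 250 bases before Hey2 held the core, once, as TTCCCA on the opposite strand starting 207 bases before the RefSeq start. Its printed stretch has 232 bases, since the 18 bases nearest that start lie inside the annotated gene and were left out. Of 32851 windows of that length, 21.6% held it at least once, so 1 of 7 is near the share of all genes. The windows of Notch3 and Dll4 hold no match and are shown in lower case throughout.

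Notch3, the mural receptor, was highest in pericyte-like cells, lower in smooth muscle-like cells and lower again in the other named classes. In the pericyte-like cells of the descending aorta it stood at 2462 CPM in the cKO (625 UMIs) and 1968 CPM in the control (402 UMIs). In smooth muscle-like cells it was 40.2, 37.6, 152 and 128 CPM in library order. Both descending libraries were above both arch libraries by more than the counting error. The summed level of the 8 pericyte markers in the same cells was 685, 778, 1512 and 1283 CPM, with none of the 8 at 0, and its part in the Notch3 difference was not tested. Endothelial-like cells (10.96 to 30.4 CPM over the libraries) and fibroblast-like cells (5.32 to 23.6) overlapped in level, and mononuclear phagocyte-like cells gave 0.753 to 2.11 CPM, a class not known for the gene.

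Notch2, a receptor found in many cell types, was spread more evenly. Its level in smooth muscle-like cells was 44.5, 51.4, 90.3 and 85.9 CPM in library order. Mononuclear phagocyte-like cells held 81.7 to 131 CPM, fibroblast-like cells 41.4 to 98.9, mesothelial-like cells 71.1 to 83.8 and endothelial-like cells only 17.6 to 34.6. The ranges of phagocyte-like, fibroblast-like and mesothelial-like cells overlap.

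Notch1 and Notch4, both known from endothelium, were high in endothelial-like cells. Notch1 stood there at 259, 228, 226 and 196 CPM in the same library order, a narrow range, and Notch4 at 150, 78.6, 99.3 and 128. Notch1 was also counted in Schwann-like cells of the descending aorta (281 CPM in the cKO, 191 in the control), in neutrophil-like cells of the cKO arch (196), in pericyte-like cells (130 and 162) and in T or NK cell-like cells (50.04 to 103), so its levels in Schwann-like, neutrophil-like and endothelial-like cells overlap. Notch4 was far more restricted: outside endothelial-like cells it reached 67.0 and 73.4 CPM in pericyte-like cells (17 and 15 UMIs) and stayed between 0.739 and 1.94 CPM in fibroblast-like and between 0.893 and 1.498 CPM in smooth muscle-like cells. The receptor UMIs of a class therefore had a different make-up in muscle and endothelium. In smooth muscle-like cells Notch2 and Notch3 together supplied most of them (Notch3 41.9, 38.6, 58.9 and 55.9% of all receptor UMIs), while in endothelial-like cells Notch1 supplied 58.7, 64.7, 61.4 and 52.8%. These shares count 5′ ends, 1 per transcript, and carry no scaling by length.

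Of the ligands, Dll4 was close to exclusive to endothelial-like cells. They held 79.7, 84.1, 89.0 and 85.6% of all Dll4 UMIs in library order. Its level in them was 106, 80.1, 121 and 216 CPM, against 0.149 to 0.432 CPM in smooth muscle-like cells, which rest on 2 to 7 UMIs per library. Jag1 was broad. It stood at 193 and 269 CPM in pericyte-like cells of the cKO and control descending aorta, at 129, 63.9, 79.6 and 73.3 CPM in endothelial-like cells, at 31.3, 44.8, 67.1 and 69.9 in smooth muscle-like cells and at 35.2 to 52.8 in fibroblast-like cells.

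Among the targets, Heyl and Hey1 divided between smooth muscle and endothelium, while Hey2 did not and Hes1 was broad. Heyl was highest in mural cells, at 331 and 367 CPM in pericyte-like cells and 77.2, 204, 174 and 197 CPM in smooth muscle-like cells, against 18.8 to 62.2 in fibroblast-like and 6.74 to 8.01 in endothelial-like cells. The cKO arch smooth muscle-like level of 77.2 is close to the highest fibroblast-like one. Hey1 was led by endothelial-like cells (23.6, 41.5, 65.3 and 95.2 CPM) and stayed between 3.88 and 7.71 CPM in smooth muscle-like cells. Its cKO arch endothelial-like level lies within the range of pericyte-like cells, 19.6 to 27.6 CPM on 11 UMIs. Hey2 was of like level in both, 49.1, 59.0, 62.2 and 62.6 CPM in smooth muscle-like cells and 60.8, 80.1, 55.3 and 43.9 in endothelial-like cells. Hes1 stood at 138 and 201 CPM in pericyte-like cells, 70.2 to 158 in Schwann-like cells and 72.4 to 98.8 in endothelial-like cells. It was lower in smooth muscle-like (20.6 to 51.2), mesothelial-like (8.50 to 13.7), mononuclear phagocyte-like (6.02 to 16.7) and T or NK cell-like cells (1.01 to 26.2).

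**Figure D1:**
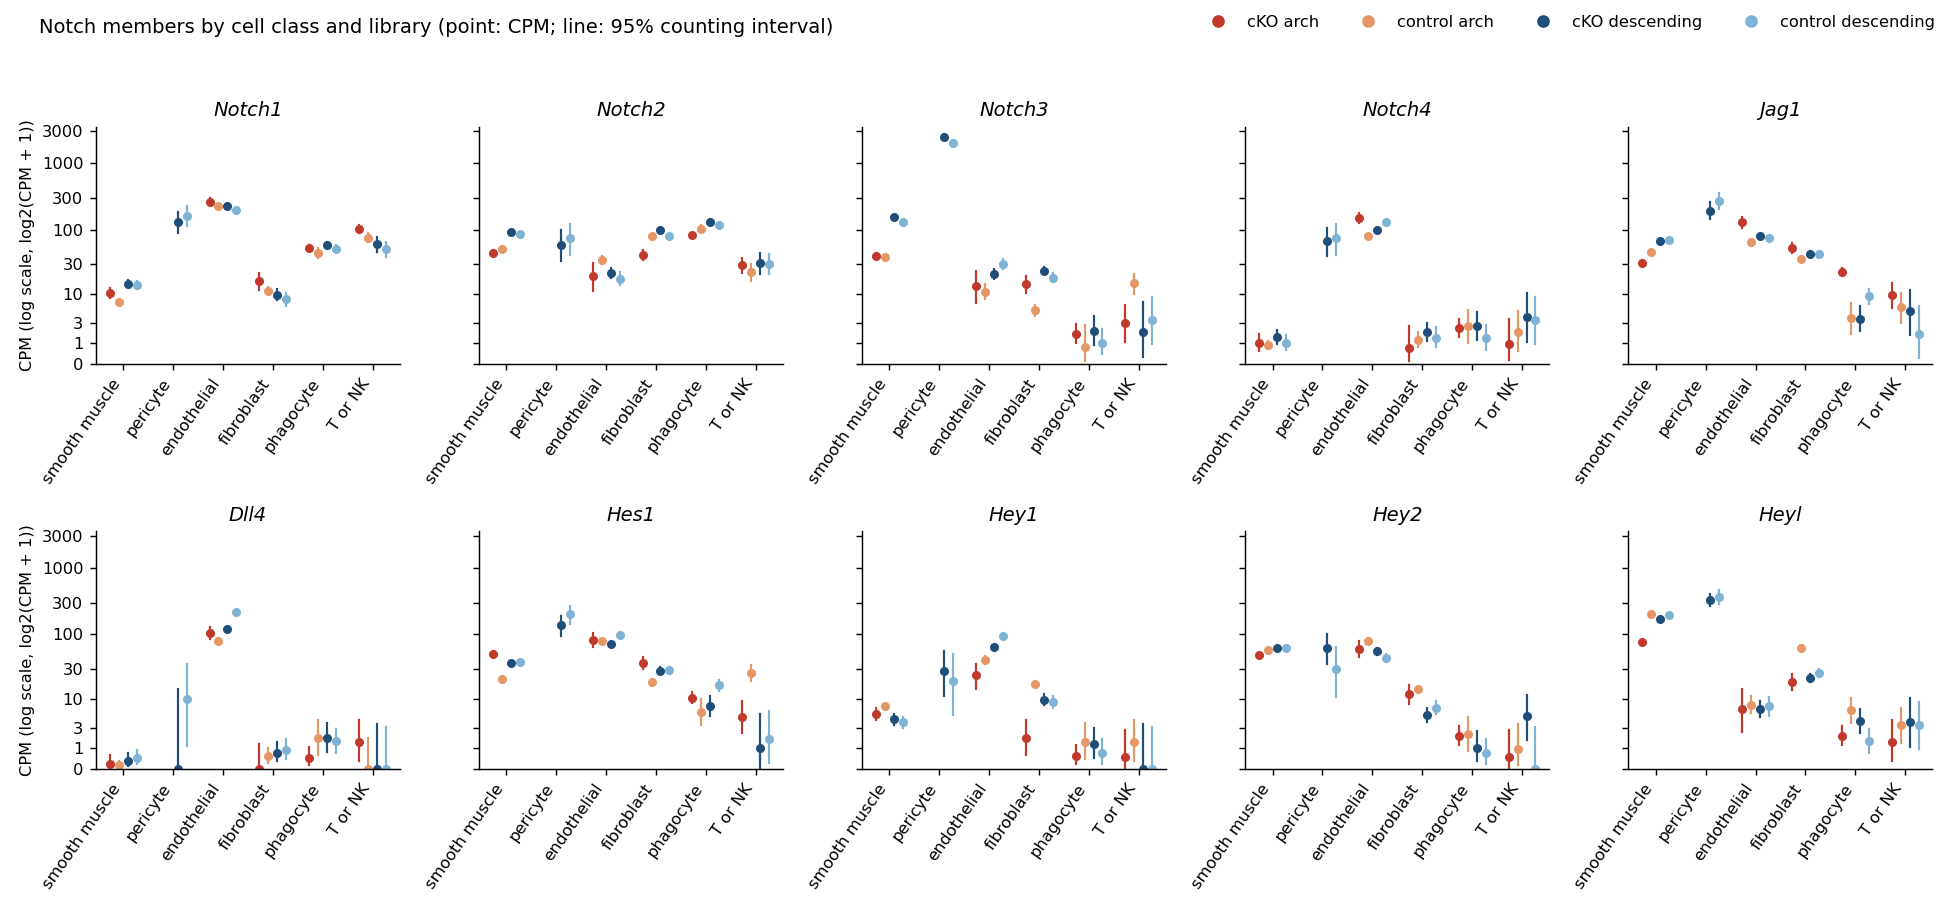
Level of each of the 10 members (vertical axis, CPM on a log2(CPM + 1) scale) in 6 cell classes, with 1 point per library and lines for the 95% counting interval. Sets under 50 cells are left out, so pericyte-like cells show the descending libraries only. Notch3 peaks in pericyte-like cells at 2462 and 1968 CPM, Dll4 and Notch4 stand out in endothelial-like cells, and Heyl stands in mural cells.

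In smooth muscle-like cells, Notch1, Notch2, Notch3, Jag1 and Hes1 were lower in the control arch than in the control descending aorta. Between the control arch and the control descending aorta, 6 of the 9 members with enough UMIs passed the 1.5-fold rule, where 13.2% of all 12380 genes tested did. Lower in the arch were Notch3 by a log2 ratio of -1.77 (-1.86 to -1.67), Notch1 by -0.91 (-1.16 to -0.66), Hes1 by -0.90 (-1.05 to -0.75), Notch2 by -0.74 (-0.84 to -0.64) and Jag1 by -0.64 (-0.75 to -0.54). Hey1 was higher in the arch by 0.98 (0.60 to 1.40) at a low level, 7.71 against 3.88 CPM. Heyl differed by 0.05 (-0.01 to 0.11) and Hey2 by -0.09 (-0.19 to 0.02), neither past the rule. The count was 3 at the lower clustering resolution, where the genotype comparison of the arch gave 4, and 5 with the stricter cell filter, where that comparison gave 6, so which of them called more members depends on the processing. The median log2 ratio of the 9 measured members was -0.64, beside -0.11 over all genes.

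Between the cKO arch and the cKO descending aorta, 4 of 8 measured members were called, all lower in the arch, where 21.3% of all genes were called. They were Notch3 by -1.92 (-2.07 to -1.78), Heyl by -1.17 (-1.28 to -1.07), Jag1 by -1.10 (-1.27 to -0.93) and Notch2 by -1.02 (-1.17 to -0.88). Notch3, Jag1 and Notch2 were thus called lower in the arch in both genotypes, but the control region call held in 9 of 13 alternatives for Jag1 and 11 of 13 for Notch2. The comparisons share no library, but region, dissection and library are the same thing here and cannot be told apart. Scaling by the median ratio of all genes instead of the total shifts these regional ratios by 0.10 in the controls and 0.14 in the cKO. This turns no called member but ends the Jag1 call in the controls (-0.54). The uncalled Hey2 ratio between the control regions is smaller than the shift and turns direction.

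The Smad4 comparison in the arch called 2 members, and they moved in opposite directions. Hes1 was 51.2 CPM in the cKO arch (608 UMIs) and 20.6 in the control arch (969 UMIs), a log2 ratio of 1.31 (1.16 to 1.46). Heyl was 77.2 CPM in the cKO arch (917 UMIs) and 204 in the control arch (9587 UMIs), a ratio of -1.40 (-1.50 to -1.30). Markers of other cells also differed in these cells between the cKO and the control arch: the 12 phagocyte markers summed to 67.9 and 19.7 CPM (2 and 3 of them at 0), the 5 neutrophil markers to 18.2 and 0.808 and the 8 endothelial markers to 18.9 and 65.9 (none at 0), and their part was not tested. The cKO arch held the lowest Heyl level and the highest Hes1 level of the 4 libraries. These are 2 of 9 measured members, where 21.0% of all 12290 genes tested were called, so the count is near the background. With cells of at least 1000 genes and under 5% mitochondrial UMIs it was 6, at the lower and higher clustering resolutions 4 and 5, and with cells chosen by markers alone 5. Jag1 at -0.52 (-0.68 to -0.36), Notch1 at 0.48 (0.17 to 0.78), Hey1 at -0.46 (-0.87 to -0.09), Hey2 at -0.27 (-0.40 to -0.14), Notch2 at -0.21 (-0.35 to -0.07) and Notch3 at 0.10 (-0.05 to 0.24) did not reach the 1.5-fold rule.

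In the descending aorta cKO against control called 0 of 8 measured members, where 4.50% of all genes were called. How far Smad4 was deleted in these cells is not known from the counts. The ratios ran from -0.18 (-0.25 to -0.10) for Heyl to 0.25 (0.17 to 0.34) for Notch3. The arch difference minus the descending difference was 1.39 (1.17 to 1.61) for Hes1 and -1.22 (-1.34 to -1.10) for Heyl on the log2 scale, each with a counting interval away from 0.

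**Figure D2:**
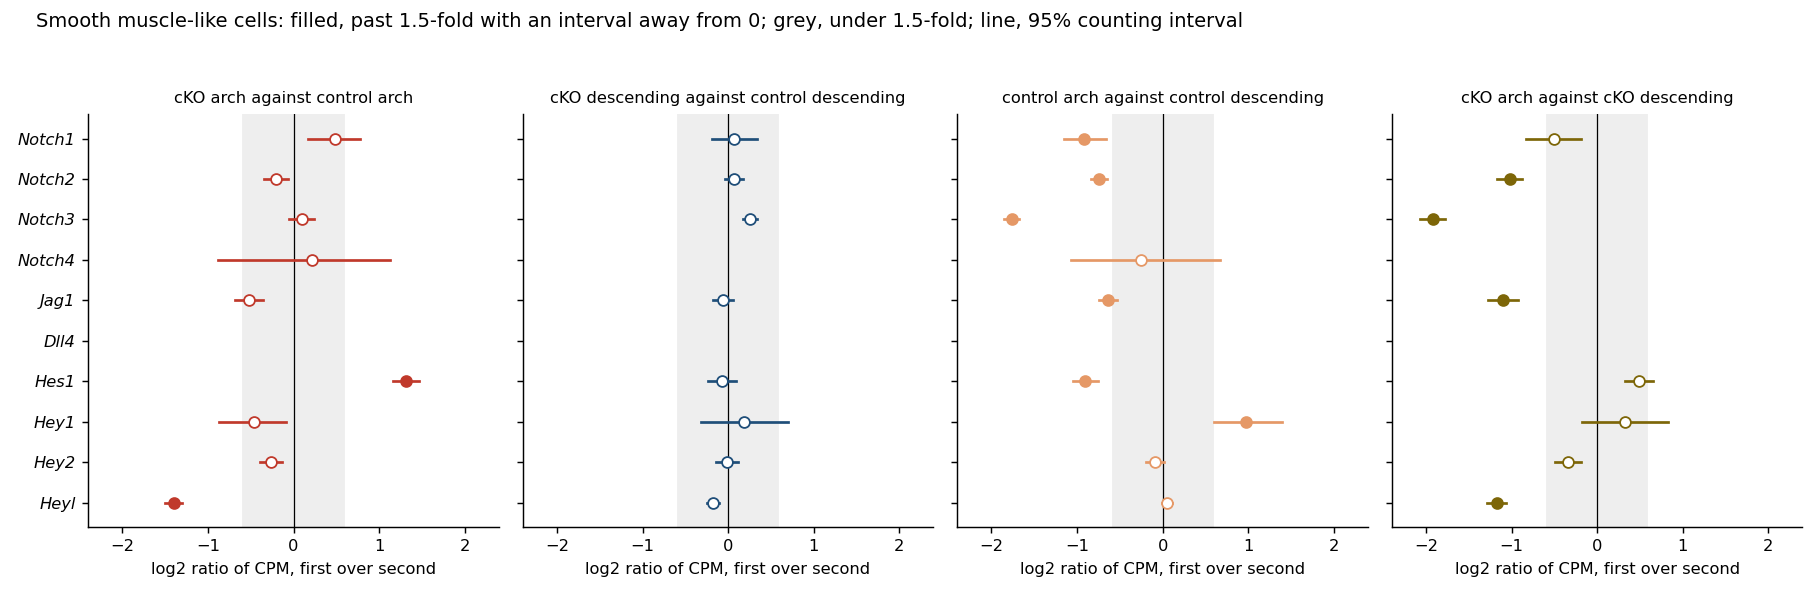
Log2 ratio of each member in smooth muscle-like cells (horizontal axis) for the 4 comparisons, 1 panel each, with lines for the 95% counting interval, filled points for members past the 1.5-fold rule and a grey band for ratios under 1.5-fold. Hes1 at 1.31 and Heyl at -1.40 leave the band in the arch genotype panel, none does in the descending panel, and Notch3 is lowest in both regional panels.

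The smooth muscle-like class was made of different clusters in each library. Of its cells, 70.2% in the cKO arch belonged to cluster 0 (led by Acta2, Tagln and Tcap), 69.4% in the control arch to cluster 1 (Acta2, Sost, Tagln), and 49.2% in both descending libraries to cluster 2 (Tcap, Acta2, Cnn1). Cluster 25, led by Nrip2, Notch3 and the odorant receptor gene Olfr558, held 1.03, 2.30, 13.5 and 8.25% of the cells in library order. Unnamed cells outside the class also differed: cluster 9 (Spp1, Comp, Igfbp2) had 991 of its 1004 cells in the cKO arch, and cluster 21 (Sost, 2210407C18Rik, Rgs5) had 583 of 601 in the control arch. Levels in those were 60.7 and 3.52 CPM for Notch3, 70.9 and 8.18 for Hes1, and 31.8 and 58.1 for Heyl.

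Cluster 25 held much of the smooth muscle Notch3. Within it Notch3 stood at 966 CPM in the control arch (75 cells), 1203 in the cKO descending (186 cells) and 1229 in the control descending library (98 cells), while clusters 0, 1, 2 and 3 ranged from 14.9 to 156 CPM in the libraries with at least 50 cells of a cluster. It supplied 15.9, 34.1, 79.4 and 53.3% of the Notch3 UMIs of the smooth muscle-like class in library order. Cluster 25 and pericyte-like cells, both rich in Notch3, shared some pericyte markers and not others. In the descending libraries its summed smooth muscle markers reached 46539 and 45726 CPM (cKO, control), against 7620 and 6262 in pericyte-like cells. The 8 pericyte markers summed to 1232 and 1350 CPM in cluster 25, with Vtn at 0 in the control, against 11883 and 11971. In these libraries they summed to 1343 to 2089 CPM in clusters 2 and 3 and to 920 and 848 in cluster 0, so the sum does not set cluster 25 apart. Rgs5 was at 60.1 and 44.4 CPM, against 5094 and 4896, Kcnj8, a potassium channel subunit, at 10.7 and 3.33, against 1359 and 1665, and Abcc9, its partner, at 8.93 and 3.33, against 1903 and 1723. Clusters 0, 2 and 3 held 34.8 to 979 CPM of Rgs5, 31.1 to 58.4 of Kcnj8 and 80.2 to 398 of Abcc9. Higd1b was at 39.9 and 28.9 CPM in cluster 25, against 437 and 470 in pericyte-like cells and at most 0.836 in clusters 0, 2 and 3. Cspg4 was at 608 and 554 CPM, against 883 and 769, a level that clusters 0, 2 and 3 also reached (491 to 833). Ndufa4l2 at 234 and 352 CPM and Cox4i2 at 270 and 364 stood between pericyte-like cells (902 and 1058; 721 and 827) and clusters 0, 2 and 3, which held at most 9.86 and 15.3. At the lower clustering resolution a cluster led by Notch3, Nrip2 and Olfr558 stayed unnamed, since its smooth muscle and pericyte scores were too close. Cluster 25 was also high in other members. Jag1 was at 217, 240 and 259 CPM in its control arch, cKO descending and control descending cells, Hes1 at 225, 144 and 171, and Notch1 at 92.7, 82.8 and 74.4, where clusters 0 to 3 held at most 93.4, 87.2 and 24.9 CPM of these genes.

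The Notch3 comparisons changed without cluster 25, an alternative chosen after the data were seen. The remaining cells held 34.1, 25.1, 34.9 and 63.2 CPM in library order. The control region ratio became -1.33 (-1.46 to -1.21) for Notch3 and -0.47 (-0.58 to -0.35), no longer called, for Jag1, and the cKO region ratio of Notch3 -0.03 (-0.23 to 0.16), also no longer called. In the descending aorta the cKO to control ratio went from 0.25 to -0.86 (-1.01 to -0.70) and turned direction. The ratio inside cluster 25 was -0.03 (-0.14 to 0.08), and inside clusters 0, 2 and 3 it was -0.74 (-0.94 to -0.55), -0.82 (-1.14 to -0.52) and -0.92 (-1.46 to -0.42). The cKO descending library thus had lower Notch3 than its control in each of these 3 clusters, but a larger share of its cells in cluster 25. In the arch the clusters disagreed: Notch3 was 34.5 CPM in the cKO and 62.8 in the control in cluster 0 (-0.86; -1.11 to -0.61), but 75.3 and 34.9 in cluster 3 (1.12; 0.54 to 1.65). The control region difference was -1.31 (-1.55 to -1.09) in cluster 0, -0.83 (-1.21 to -0.44) in cluster 3 and -0.35 (-0.49 to -0.20) in cluster 25, and it was 0.03 (-0.41 to 0.43) in cluster 2.

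Hes1 and Heyl kept their direction inside clusters 0, 1 and 3, the clusters with enough cells and UMIs in both arch libraries. In cluster 0, Hes1 was 49.6 CPM in cKO and 26.8 in control arch cells (0.88; 0.56 to 1.23), and Heyl was 74.2 and 170 CPM (-1.19; -1.35 to -1.03). In cluster 3, Hes1 was 87.2 and 19.9 CPM (2.14; 1.54 to 2.72), and Heyl 89.2 and 224 CPM (-1.31; -1.79 to -0.89). In cluster 1, with 66 cells in the cKO arch, the ratios were 1.25 (0.68 to 1.74) for Hes1 and -1.02 (-1.37 to -0.71) for Heyl. Cluster 3 cells are shallow, with medians of 2066 and 4705 UMIs in those libraries. Fibroblast-like cells of the arch had the same directions: Hes1 was 36.9 CPM in the cKO and 18.8 in the control (0.98; 0.63 to 1.31) and Heyl 18.8 and 62.2 (-1.71; -2.16 to -1.32). Endothelial-like cells differed by 0.07 (-0.32 to 0.43) in Hes1 and -0.15 (-1.78 to 1.01) in Heyl. That Heyl ratio rests on as few as 6 UMIs, and its interval includes the smooth muscle-like ratio. T or NK cell-like cells went the other way in Hes1, by -2.34 (-3.54 to -1.41). In mononuclear phagocyte-like cells, Hes1 (6.02 to 16.7 CPM over the libraries) was lowest and Heyl (1.56 to 6.40) highest in the control arch. The part that a difference between whole libraries has in these ratios was not tested.

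**Figure D3:**
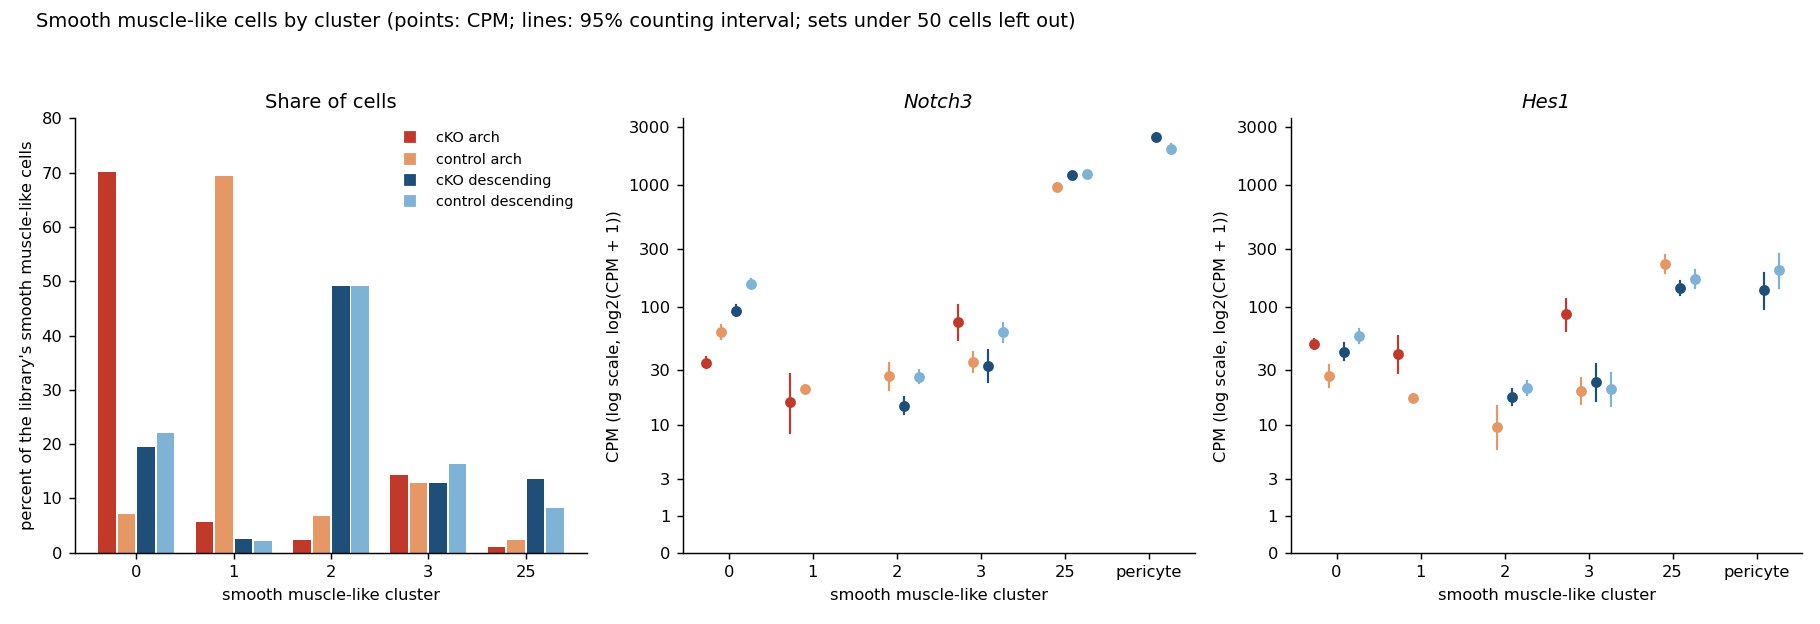
Left, percent of each library's smooth muscle-like cells in clusters 0, 1, 2, 3 and 25. Middle and right, CPM of Notch3 and Hes1 (log2(CPM + 1) scale) in those clusters and in pericyte-like cells, with 1 point per library and lines for the 95% counting interval. Cluster 25 holds 13.5 and 8.25% of the descending and 1.03 and 2.30% of the arch cells, and its Notch3 level of 966 to 1229 CPM lies between the other clusters and the pericyte-like cells.

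In the pericyte-like cells of the descending aorta 5 members had enough UMIs. Between genotypes Notch3 differed by 0.32 (0.14 to 0.51), Heyl by -0.15 (-0.62 to 0.32), Notch1 by -0.31 (-1.05 to 0.43), Jag1 by -0.48 (-1.07 to 0.10) and Hes1 by -0.54 (-1.24 to 0.14). The intervals of Jag1, Hes1, Notch1 and Heyl reach past 1.5-fold, and that of Notch3 does not.

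In endothelial-like cells the regional comparison of the controls called 6 of 10 members, where 20.0% of all 10443 genes tested were called. Dll4, the endothelial ligand, was 80.1 CPM in the control arch and 216 in the control descending aorta, a log2 ratio of -1.43 (-1.61 to -1.26). Notch3 at -1.46 (-1.96 to -0.99), Hey1 at -1.19 (-1.45 to -0.95) and Notch4 at -0.70 (-0.89 to -0.51) were lower in the arch too. Notch2 at 0.97 (0.57 to 1.39) and Hey2 at 0.87 (0.61 to 1.13) were higher there, so the paralogues Hey1 and Hey2 went opposite ways over the class. In the same cells of the control arch and the control descending aorta, fibroblast markers summed to 1390 and 312 CPM, pericyte markers to 148 and 308 and adipocyte markers to 120 and 457, with none at 0, and their part was not tested. Notch1, the main endothelial receptor by UMIs, differed by only 0.21 (0.08 to 0.35). In the cKO, 3 of 9 measured members were called between arch and descending aorta, where 19.3% of all genes were. Hey1 was lower in the arch by -1.43 (-2.17 to -0.83), and Jag1 at 0.71 (0.40 to 1.00) and Notch4 at 0.60 (0.31 to 0.87) were higher.

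Between genotypes, the arch called 4 of 9 measured members in endothelial-like cells, where 19.2% of all genes were called. Jag1 was 129 CPM in the cKO arch (115 UMIs) and 63.9 in the control arch (303 UMIs), a ratio of 1.02 (0.70 to 1.33). Notch4 was higher by 0.93 (0.63 to 1.22), and Notch2 at -0.82 (-1.67 to -0.13) and Hey1 at -0.78 (-1.54 to -0.16) were lower, the last on 21 UMIs in the cKO arch. That library holds 156 endothelial-like cells, the fewest. In the descending aorta 1 of 10 members was called, where 8.99% of all genes were. Dll4 was 121 CPM in the cKO (755 UMIs) and 216 in the control (896 UMIs), a ratio of -0.83 (-0.98 to -0.69). Hey1 at -0.54 (-0.75 to -0.34) and Hes1 at -0.45 (-0.65 to -0.25) had intervals below 0 but did not reach 1.5-fold. The arch difference minus the descending difference was 1.30 (0.97 to 1.63) for Notch4, 1.24 (0.89 to 1.60) for Dll4, 0.90 (0.53 to 1.28) for Jag1 and -1.12 (-1.94 to -0.30) for Notch2.

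**Figure D4:**
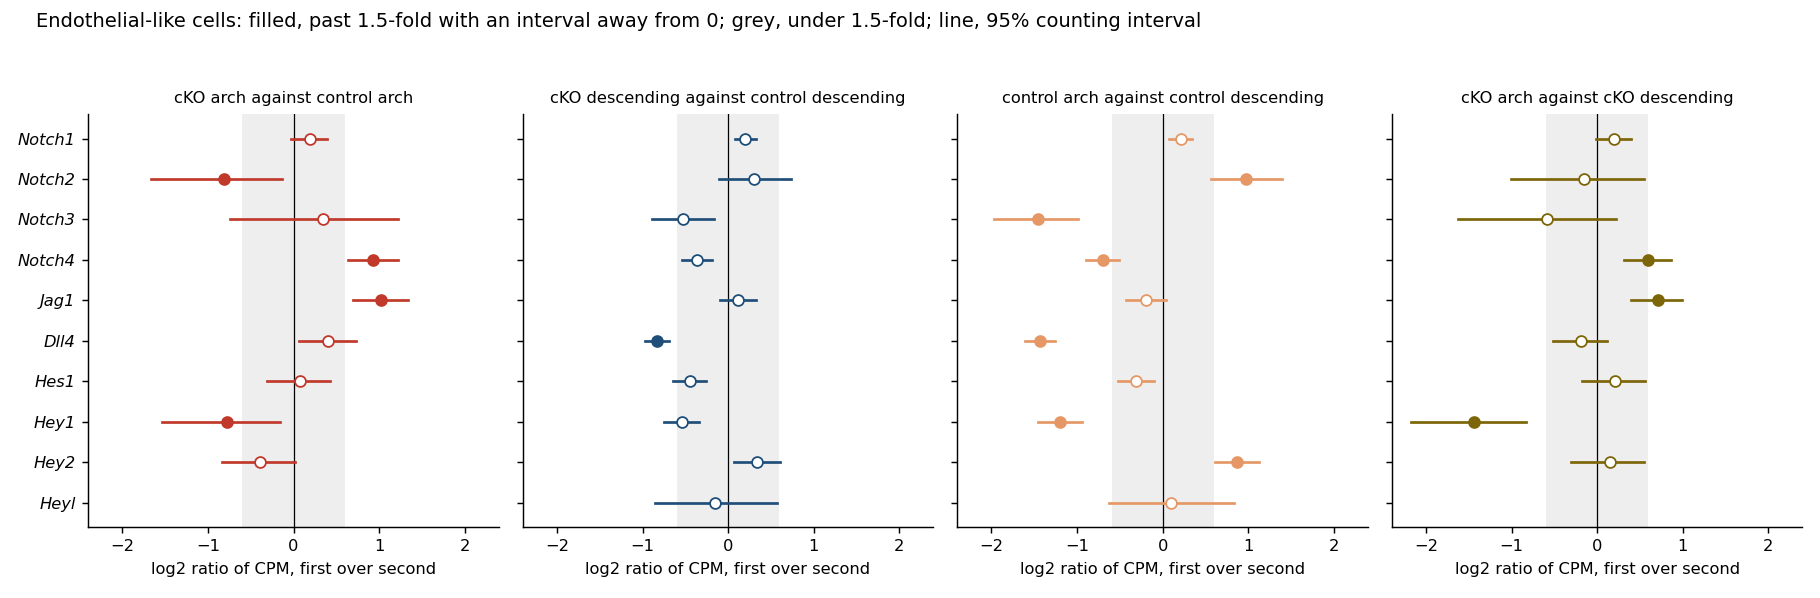
Log2 ratio of each member in endothelial-like cells (horizontal axis) for the 4 comparisons, drawn as for smooth muscle-like cells. Dll4 at -1.43, Notch3 at -1.46 and Hey1 at -1.19 lie left of the grey band in the control region panel, with Notch2 at 0.97 and Hey2 at 0.87 on the right, while Dll4 at -0.83 is the single member outside it in the descending genotype panel.

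Endothelial-like cells, too, fell into clusters that took different shares of each library. Cluster 11 (led by Cytl1, Vwf and Ptprb) held 44.9, 48.5, 18.5 and 15.3% of them in library order. Cluster 23 (led by Gpihbp1, Cldn5 and Cdh5, with Cd36 and Car4, genes known from capillary endothelium) held 30.8, 22.9, 45.5 and 51.7%. Members differed strongly between the 2 clusters within a library. In the control descending library Dll4 was 56.1 CPM in cluster 11 and 302 in cluster 23, Hey1 12.3 and 134, and Notch3 1.37 and 44.7, while Hey2 was 224 and 2.31 and Jag1 137 and 27.0. In the control arch the same contrast was 25.8 and 254 CPM for Dll4, 5.24 and 104 for Hey1, 132 and 4.08 for Hey2. Notch1 was of like level in both, 222 and 174 CPM in the control descending and 225 and 192 in the control arch library. Cluster 24 (led by Cldn5, Podxl and Sema3g), a shallow one, held 14.1, 14.1, 17.5 and 20.5% of the class in library order. Where it had at least 50 cells, Dll4 was at 173 to 202 CPM, Hey1 at 84.6 to 190 and Jag1 at 233 to 387. High Hey1 was thus not particular to cluster 23, nor high Jag1 to cluster 11. The summed level of the 8 pericyte markers was 447 CPM in cluster 23 and 52.0 in cluster 11 of the control descending library, beside the Notch3 values there. Their part in endothelial Notch3 was not tested.

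With cluster 11 taken alone, an alternative chosen after the data were seen, several endothelial ratios changed. Hey2 turned to -0.77 (-1.04 to -0.49) in control arch against control descending, from 0.87 over the class, and Notch3 to 0.11 (-2.60 to 6.12) on few UMIs. Notch2 became 0.05 (-0.51 to 0.67) and Notch4 -0.39 (-0.79 to 0.04); Dll4 was still called at -1.13 (-1.71 to -0.52). In cluster 23, Dll4 differed between the control regions by -0.25 (-0.46 to -0.04) and Hey1 by -0.36 (-0.70 to -0.05), neither past 1.5-fold. In cKO against control arch, Jag1 in cluster 11 was 156 and 70.9 CPM, a ratio of 1.14 (0.72 to 1.53), and Notch2 -1.10 (-2.26 to -0.23), as over the class. Notch4 went to -0.09 (-0.70 to 0.44) and Hey1 turned to 0.44 (-2.18 to 2.13), again on few UMIs. The descending Dll4 difference between genotypes was -0.48 (-1.07 to 0.13) in cluster 11 and -0.45 (-0.60 to -0.29) in cluster 23, under 1.5-fold in both.

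**Figure D5:**
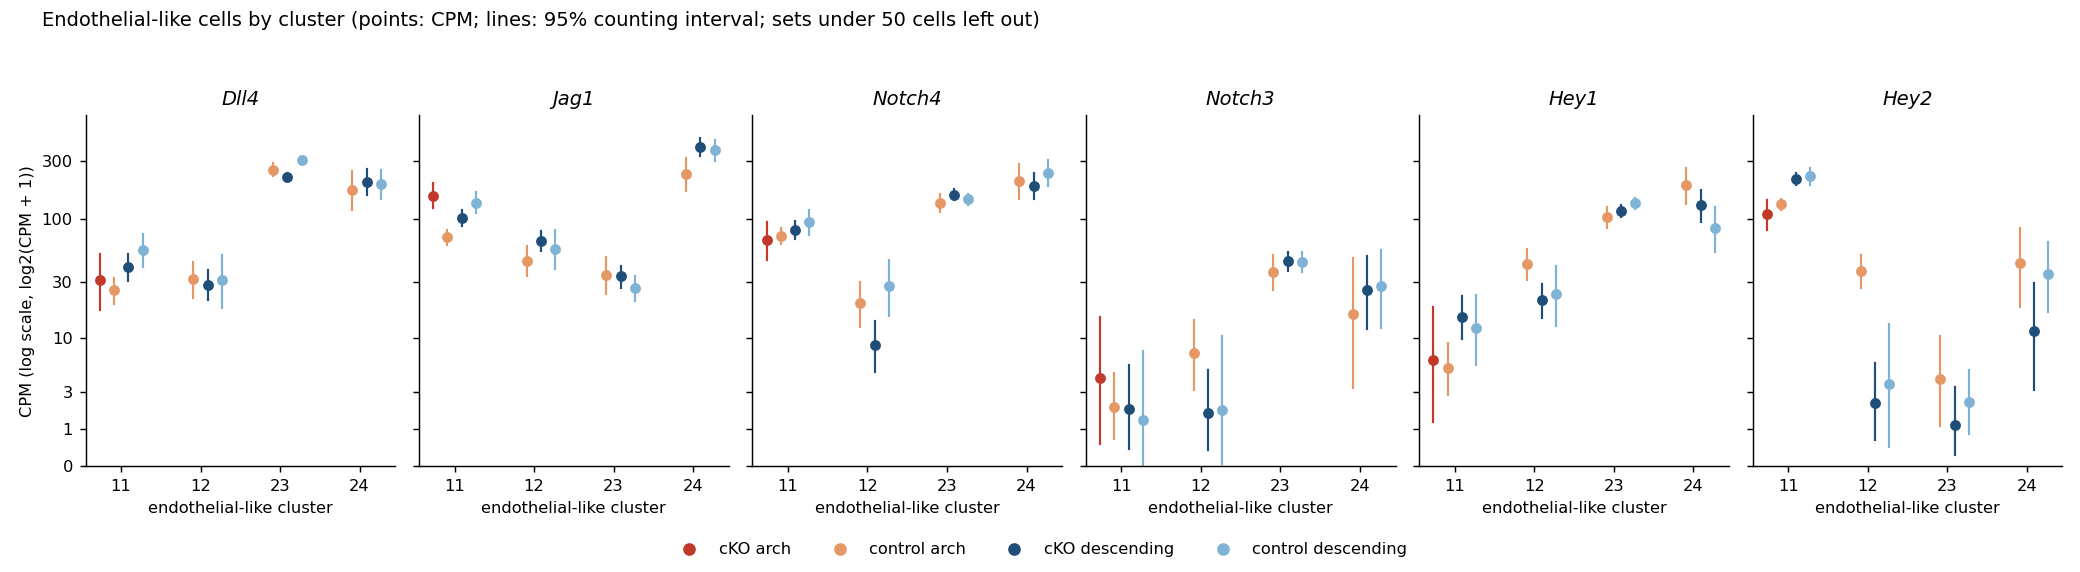
CPM (log2(CPM + 1) scale) of 6 members in the 4 endothelial-like clusters, with 1 point per library and lines for the 95% counting interval; sets under 50 cells are left out. Dll4, Hey1 and Notch3 are high in cluster 23 and low in cluster 11, and Hey2 is high in cluster 11, at 110 to 224 CPM, and at 1.16 to 4.08 CPM in cluster 23. Dll4 and Hey1 are also high in cluster 24, at 173 to 202 and 84.6 to 190 CPM.

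Genes that mark arterial or venous endothelium were set beside the members. Of 8 arterial genes measured between the control regions, where 20.0% of all genes were called, 1 was called higher in the arch, Gja5 at 0.98 (0.81 to 1.14), and 2 lower, Sox17 at -0.80 (-0.93 to -0.68) and Cxcr4 at -1.44 (-2.29 to -0.68). Inside cluster 11 Gja5 went the other way, with 367 CPM in the control arch and 480 in the control descending aorta. Of 5 venous or lymphatic genes, 3 were called lower in the arch, Aplnr at -2.72 (-3.00 to -2.46), Nrp2 at -1.04 (-1.22 to -0.85) and Nr2f2 at -0.83 (-1.09 to -0.59). In cluster 11 of the control libraries none of these 3 was above 4.11 CPM. Inside cluster 23, Nrp2 was 175 CPM in the control arch and 176 in the control descending aorta, Aplnr 110 and 282 and Nr2f2 45.9 and 52.8. Cluster 12 (led by Ccl21a, Vwf and Mmrn1) held 10.3, 14.5, 18.5 and 12.6% of the class in library order. There Nrp2 was 156 CPM in the control arch and 309 in the control descending aorta, Aplnr 18.2 and 48.1 and Nr2f2 146 and 337, all lower in the arch as over the class. In cluster 24 Nrp2 was 168 and 169 CPM, Aplnr 37.9 and 63.4 and Nr2f2 32.5 and 81.0, the last on 6 and 23 UMIs. The part of the cluster shares in the class ratios was not tested. In cKO against control arch, with 19.2% of all genes called, 2 of 7 measured arterial genes were lower, Gja5 at -1.08 (-1.43 to -0.77) and Efnb2 at -0.63 (-0.88 to -0.39), and 3 of 5 venous or lymphatic genes were higher and 1 lower.

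Other cells of the wall changed less uniformly. In fibroblast-like cells 6 of 8 measured members were called in cKO against control arch (22.1% of all genes), 0 of 8 in the descending aorta (4.23%), 5 of 8 between the control regions (15.1%) and 5 of 8 between the cKO regions (23.2%). Hey1 was 1.85 CPM in the cKO arch (5 UMIs) and 17.4 in the control arch (268 UMIs), a ratio of -3.10 (-4.87 to -1.99), and Notch3 was higher by 1.45 (0.85 to 2.00) at 14.4 against 5.32 CPM. In the control arch, 155 cells of a fibroblast-like cluster led by Chad, Wif1 and Angptl7 have no counterpart in the other libraries, and their part in these values was not tested. In mononuclear phagocyte-like cells Jag1 was 22.4, 3.76, 3.70 and 9.21 CPM in library order (203, 10, 14 and 53 UMIs), a ratio of 2.50 (1.66 to 3.65) between the arch libraries. Cluster 6 (Cxcl2, Cxcl3, Arg1), with 880 of its cells in the cKO arch against 13 in the control arch, is part of that class. In T or NK cell-like cells Hes1 was 26.2 CPM in the control arch (53 UMIs), against 1.01 to 4.98 in the others. Cells of this class also come from cluster 26 (Trbc2, Hist1h2ap, Hist1h1b), which was named thymocyte. It held 13, 244, 2 and 10 cells in library order, and its part in the Hes1 difference was not tested.

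The other pathway genes are 47 on a list read by role. In smooth muscle-like cells 36 had enough UMIs in cKO against control arch, and 1 was called higher and 4 lower, beside 21.0% of all genes called. Their median log2 ratio was -0.10, as over all genes. Nrarp, a feedback inhibitor that Notch itself induces, was 1.43 CPM in the cKO arch (17 UMIs) and 4.59 in the control arch (216 UMIs), a ratio of -1.64 (-2.49 to -0.97), and Dtx1, a ubiquitin ligase of the Deltex family, was at -1.40 (-2.25 to -0.72). Aph1c, a gamma-secretase subunit, was at -0.94 (-1.54 to -0.43), and the ligand Jag2 was higher by 0.78 (0.13 to 1.37). Numb, an inhibitor of Notch receptors, was lower by -0.71 (-0.92 to -0.52). In the descending aorta 0 of 35 were called (4.50% of all genes). Between the control regions (13.2% of all genes) 1 of 36 was higher and 4 lower, with Neurl1b, a ubiquitin ligase of Notch ligands, at -2.54 (-3.11 to -2.02), Nrarp at -1.47 (-1.75 to -1.19) and the coactivator Maml2 at -0.90 (-1.01 to -0.78), and Dtx1 at 1.10 (0.55 to 1.74). Between the cKO regions (21.3%) 0 of 32 were higher and 6 lower, with Nrarp at -3.31 (-4.16 to -2.64) and Neurl1b at -2.68 (-3.64 to -1.93). Rbpj itself stayed between 64.4 and 71.3 CPM in smooth muscle-like cells of the 4 libraries.

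In endothelial-like cells 1 of 36 other pathway genes was called higher and 3 lower in cKO against control arch (19.2% of all genes). The ligand Dll1 was 77.7 CPM in cKO and 153 in control arch cells, a ratio of -0.97 (-1.36 to -0.62), and Dtx1 was at -2.63 (-5.14 to -1.26) on 3 UMIs in the cKO arch. In the descending aorta (8.99%) 2 of 37 were higher and 2 lower, with Nrarp at -0.65 (-0.83 to -0.46) and Neurl1b at -0.85 (-1.32 to -0.39) lower, and Dtx1 at 0.80 (0.17 to 1.498) and Neurl3 at 0.65 (0.30 to 1.02) higher. Between the control regions (20.0%) 4 of 37 were higher in the arch and 6 lower, with Dll1 at 1.23 (1.03 to 1.44) and Jag2 at -1.06 (-1.39 to -0.73), ligands that went opposite ways. Between the cKO regions (19.3%) 2 of 36 were higher and 4 lower, with Neurl3 at -2.10 (-3.53 to -1.13) and Jag2 at -0.86 (-1.41 to -0.38).

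The cKO arch matrix also counts a feature named RFP, taken here for the reporter although the sources do not say so. Among its smooth muscle-like cells, 302 with at least 16 RFP UMIs and 766 with fewer than 8 were set side by side. Notch3 was 58.4 CPM in the RFP-high and 31.8 in the RFP-low cells, a ratio of 0.88 (0.59 to 1.16), Notch1 16.0 and 8.30 (0.95; 0.38 to 1.51) and Jag1 42.7 and 27.1 (0.66; 0.33 to 0.98). Heyl was 63.5 and 83.8 CPM (-0.40, interval -0.64 to -0.17) and Hes1 57.8 and 48.7 (0.25, interval -0.02 to 0.51), neither past 1.5-fold. Of all genes tested in this split, 6.88% were called. With at least 8 RFP UMIs counted as high, the Jag1 ratio was 0.50 (0.19 to 0.80), under 1.5-fold. In the unnamed cluster 9 of the same library, where 7.47% of all genes were called, Notch3 and Jag1 went the other way. Their ratios were -0.49 (-0.71 to -0.27) for Notch3 and -0.50 (-0.71 to -0.30) for Jag1. With the 8-UMI boundary (5.74% called) they were -0.64 (-0.85 to -0.43) for Notch3 and -0.60 (-0.80 to -0.41) for Jag1. Notch1 differed in cluster 9 by 0.08 (-0.28 to 0.44). Hey1 was lower in RFP-high cells of both sets, by -1.30 (-2.02 to -0.65) in cluster 9 and by -0.91 (-2.12 to 0.04), not called, in smooth muscle-like cells. All these cells come from 1 library.

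For each member, the genes with the most similar profile were found by Pearson's correlation of log2(CPM + 1) over 32 profiles of 11 cell classes in the 4 libraries, among 11956 genes. Profiles of 1 class share a cell type and profiles of 1 library share depth, so the values are descriptions only. Notch3 was closest to Slc6a17 (0.912), Slc2a4 (0.908) and Stac (0.906), Notch4 to Serpina1b (0.937), Pcdh12 and Cyp4b1 (both 0.923) and Notch1 to Rgl2 (0.849). Dll4 was closest to Rtp3 (0.946) and Jag1 to Col4a2 (0.908), a chain of basement membrane collagen. Heyl was closest to Gucy1b1 (0.937), a subunit of the nitric oxide receptor guanylate cyclase, Hey2 to Plcb4 (0.917), Hey1 to Eng (0.926), an endothelial co-receptor of the TGF-beta family, and Hes1 to Hrct1 (0.892). Notch2 had the weakest best match, Tubb6 at 0.796.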

How the data were processed

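The authors deposited 4 matrices of unnormalized UMI counts, genes by cell barcodes, made with Cell Ranger 6.1.1 on mm10 per the submitters' processing notes; the matrix headers give 6.1.2. Which annotation release was used is not stated. The 27734 gene identifiers shared by all matrices hold 99.5 to 99.6% of the UMIs, and no column of another sample was used.

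Cells with at least 500 genes and under 10% mitochondrial UMIs were kept. The automatic Scrublet threshold marked 5 of 5842 cells in the cKO arch, so in every library the cells with the highest scores were removed as doublets, at 0.8% per 1000 barcodes. Cells were clustered with scanpy 1.11.5 (3000 variable genes, 40 components, 15 neighbours, Leiden resolution 1), without the members and the listed pathway genes. Clusters were named from marker lists. The details of the naming rule were set after the clusters were seen. A cell then needed at least 2 markers of its class and its best score there.

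UMIs were summed per class and library and given as CPM with exact Poisson intervals. Log2 ratios use a prior of 0.5 UMI and an exact conditional 95% interval. Intervals cover counting error only, and with 1 library per group no test was made. The ratio script was tested on simulated data. The members and lists were chosen with earlier results of these data known. Named were all members, the 4 other pathway genes furthest from 0 in each smooth muscle-like and endothelial-like comparison, arterial and venous genes with enough UMIs, and the genes most correlated with each member. Numb, the genes that lead clusters and single pericyte markers were named after their values were seen. Alternatives changed the cell filter, doublets, clustering, gate, scaling, prior, UMI minimum and the clusters kept. Computation used Python 3.11.15, numpy 2.4.6, scipy 1.17.1 and pandas 2.3.3.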

Additional observations from a re-analysis of the deposited data

How the results depend on the processing

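No paired analysis was possible because each group holds 1 library and the labels give no shared replicate numbers. Of 100 counts of called members under the alternatives, 83 stayed within 1.5 times the main count and 17 did not. Of the ratios of called members, 258 moved by less than counting error, 61 moved by more in the same direction and 5 turned direction; the cause was not tested. In smooth muscle-like cells, cKO against control arch called 6 members with at least 1000 genes and under 5% mitochondrial UMIs, 4 at resolution 0.5, 5 at resolution 2, 5 with the marker gate alone and 4 in cluster 0 alone, against 2. The descending genotype count of 0 became 1 at resolution 0.5, 1 with the mean of per-cell CPM, 3 in cluster 0 alone and 1 without cluster 25. The control region count of 6 became 3 at resolution 0.5. In endothelial-like cells the descending genotype count of 1 became 3 under the stricter cell filter, 2 at resolution 0.5, 2 with whole named clusters, 2 with the gate alone, 0 with the mean of per-cell CPM and 0 in cluster 11 alone, and the control region count of 6 became 3 in cluster 11 alone. The ratios that turned direction did so in cluster 11 alone: Notch4 at -0.088 and Hey1 at 0.44 in cKO against control arch, Notch3 at 0.11 and Hey2 at -0.77 between the control regions, and Notch4 at -0.27 between the cKO regions. The alternatives that keep or drop single clusters were chosen after seeing the data. Over 13 alternatives, Hes1 in smooth muscle-like cells of the arch ranged from 0.88 to 1.505, Heyl from -1.73 to -1.19 and Notch3 between the control regions from -1.996 to -1.30, each called in all 13. Notch3 between the cKO regions ranged from -2.22 to -0.03 and was called in 11. Depth limits members with few UMIs, such as Dll4 outside endothelial-like cells. Median-of-ratios scaling shifts endothelial-like ratios by 0.12 in cKO against control arch and by 0.11 between the cKO regions on the log2 scale.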
